A study of Mus musculus with 12 samples.

Results

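Freezing was compared with no freezing in the liver of fasted mice, over all 52530 peaks of open chromatin in the deposited table. The comparison used 6 of the 12 samples: 3 frozen and 3 fresh livers, all from female HEP-INTACT mice that went 16 h without food from the onset of their active phase (ZT12), and all nuclei were captured by immunoprecipitation. HEP-INTACT mice carry a tag that lets hepatocyte nuclei be pulled from whole liver. No source used here gives the tag's driver or the age of the mice. The sample titles name 3 fasted mice, each with a fresh and a frozen preparation. The table names its columns by the letters A, B and C instead, so a letter cannot be tied to a mouse, but fresh and frozen columns of the same letter deviated together and were treated as pairs. The other 6 samples are fresh and frozen nuclei of 3 mice with food at all times, killed at the same time of day, and they enter here only where the effect of freezing is compared between the feeding states.

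ATAC-seq measures open chromatin: the transposase Tn5 cuts DNA that nucleosomes leave bare and adds sequencing adapters to it, so reads pile up at active promoters and enhancers. Bulk liver holds several cell types, and tagged nuclei allow hepatocytes to be read alone, from tissue that is processed at once or stored frozen. In the fasted liver, glucocorticoid receptor, PPAR-alpha and CREB are known to drive glucose output and ketone production, while SREBP factors and their targets in fat and cholesterol synthesis are turned down.

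Promoters that gained the most signal in frozen liver held, more often than all promoters, the palindrome of NRF1, a factor that drives genes for mitochondria and basic cell functions, or the cyclic AMP response element (CRE), the site of CREB. Promoters that lost the most held neither. The sequences of 7 such promoters are given here because the motif counts that follow turn on them. Each is the 250 bases before the gene start in RefSeq (GRCm38.p6, the assembly that mm10 names), 5' to 3' on the gene's strand. Capitals mark matches of the NRF1 letters (GCGCATGCG) or their reverse complement in the first 3 and of the CRE letters (TGACGTCA) in the next 2, and the last 2, with no capitals, are promoters that fell. They are the Hnrnph1 promoter (chr11:50377428-50377677, plus strand), of an RNA-binding splicing factor, Nup50 (chr15:84923178-84923427, plus), of a nuclear pore protein, Mapkapk5 (chr5:121545893-121546142, minus), of a stress kinase, Hist1h4h (chr13:23530794-23531043, plus), of a histone H4, Tinf2 (chr14:55681818-55682067, minus), of a telomere protein, Rad18 (chr6:112696649-112696898, minus), of a ubiquitin ligase of DNA repair, and Zfp418 (chr7:7171103-7171352, plus), of a zinc finger protein.
Hnrnph1: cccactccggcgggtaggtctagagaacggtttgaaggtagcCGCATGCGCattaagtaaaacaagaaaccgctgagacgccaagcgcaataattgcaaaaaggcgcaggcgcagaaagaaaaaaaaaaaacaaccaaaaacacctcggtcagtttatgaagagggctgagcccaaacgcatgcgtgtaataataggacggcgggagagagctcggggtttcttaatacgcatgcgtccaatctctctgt
Nup50: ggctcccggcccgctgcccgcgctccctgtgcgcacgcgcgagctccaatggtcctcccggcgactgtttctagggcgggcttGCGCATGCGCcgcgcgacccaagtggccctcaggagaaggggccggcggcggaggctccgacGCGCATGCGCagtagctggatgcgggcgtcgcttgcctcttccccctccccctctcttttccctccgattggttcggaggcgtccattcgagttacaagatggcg
Mapkapk5: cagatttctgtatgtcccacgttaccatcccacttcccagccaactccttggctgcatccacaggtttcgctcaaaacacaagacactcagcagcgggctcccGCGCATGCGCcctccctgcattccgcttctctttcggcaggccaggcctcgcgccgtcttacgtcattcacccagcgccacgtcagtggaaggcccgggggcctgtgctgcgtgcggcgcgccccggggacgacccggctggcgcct
Hist1h4h: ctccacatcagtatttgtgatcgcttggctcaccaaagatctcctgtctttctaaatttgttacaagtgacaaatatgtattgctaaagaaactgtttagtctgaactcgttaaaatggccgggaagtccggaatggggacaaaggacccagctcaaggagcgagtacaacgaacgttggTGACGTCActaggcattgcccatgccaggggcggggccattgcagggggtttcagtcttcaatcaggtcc
Tinf2: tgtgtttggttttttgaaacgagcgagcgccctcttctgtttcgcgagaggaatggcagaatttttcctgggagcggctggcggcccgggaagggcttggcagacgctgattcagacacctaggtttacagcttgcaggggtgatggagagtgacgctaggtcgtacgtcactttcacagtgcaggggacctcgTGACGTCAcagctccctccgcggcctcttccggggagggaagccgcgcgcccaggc
Rad18: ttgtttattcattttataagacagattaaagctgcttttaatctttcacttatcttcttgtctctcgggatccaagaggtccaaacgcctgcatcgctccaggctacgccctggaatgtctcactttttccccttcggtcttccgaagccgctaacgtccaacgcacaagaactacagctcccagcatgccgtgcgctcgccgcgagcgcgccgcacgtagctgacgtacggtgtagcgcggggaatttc
Zfp418: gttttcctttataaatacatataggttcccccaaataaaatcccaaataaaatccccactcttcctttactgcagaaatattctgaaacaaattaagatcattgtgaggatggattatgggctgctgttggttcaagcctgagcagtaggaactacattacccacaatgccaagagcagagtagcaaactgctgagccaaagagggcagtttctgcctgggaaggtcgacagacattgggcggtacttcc

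The 5 promoters with capitals were picked because they rose and hold a motif, so their direction is no result. Values are reads per peak divided by a factor per library, called scaled reads. Hnrnph1 had 67.9, 68.6 and 83.6 scaled reads in the fresh libraries A, B and C and 238, 233 and 234 in the frozen ones, a log2 difference of 1.67 ± 0.10 (SE). Nup50 had 82.1, 83.1 and 101 in fresh liver and 275, 288 and 269 after freezing (1.64 ± 0.09). Its window holds 4 matches, all inside its peak. They overlap in pairs, at 167 and 166 and at 105 and 104 bases before the start, as the palindrome matches on both strands. Mapkapk5 had 66.5, 62.9 and 67.8 in fresh liver and 191, 196 and 198 after freezing (1.56 ± 0.11). The match in the Hnrnph1 window lies outside its peak, and those of Mapkapk5, an overlapping pair, lie inside. Tinf2, with a CRE inside its peak, had 115, 96.1 and 116 against 283, 287 and 332 (1.45 ± 0.09). Hist1h4h, Rad18 and Zfp418 are given with the other promoters that moved most.

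Over the whole table, 15503 peaks (29.5%) rose and 17031 (32.4%) fell with freezing of the fasted liver, 61.9% in all (limma with the letter as block, adjusted p under 0.05, two-sided, Benjamini-Hochberg over all peaks). Most of these differences were small. By more than 1 on the log2 scale, 1142 peaks (2.17%) rose and 2180 (4.15%) fell, and the median over all peaks was -0.04. The 3 frozen libraries did not overlap the 3 fresh ones at 28344 peaks, or 54.0%. Log2 differences are of scaled reads plus 1, which understates the change of low peaks. The lower count is the less settled: without the lowest 25% of peaks it was 10166, beside 15018 higher, and without the pairing by letter it was 10773, beside 11665 higher.

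The libraries held 6864441 to 14506057 reads in peaks in fresh and 3692152 to 9203786 in frozen liver, and within each letter the frozen library was the shallower. Median counts per peak were 100 to 217 in fresh and 51 to 133 in frozen libraries. Frozen libraries were also spread more widely over peaks, with an SD of log2 values of 1.11 to 1.28 against 0.88 to 1.04, and this remained after all were thinned to the depth of frozen library C (1.14 to 1.28 against 0.90 to 1.05). All 12 hepatocyte marker genes had peaks, 132 in all, of which 58 rose and 17 fell, and their summed level was 17298 to 19967 scaled reads in fresh and 20571 to 24274 in frozen liver. These and the next counts stand beside 29.5% higher and 32.4% lower over all peaks. Markers of other liver cells were thin: 21 peaks for endothelium (4 higher, 4 lower), 14 for bile duct (6 and 2), 4 for stellate cells (1 and 2), 3 for blood cells (1 and 1), 2 for macrophages (0 and 1) and 1 for lymphocytes, not called. Summed levels were 1743 to 1809 in fresh and 1691 to 1945 in frozen liver for endothelium, 1451 to 1553 and 1589.9 to 1689 for bile duct, 275 to 329 and 239.7 to 318 for stellate cells, 289 to 325 and 350.4 to 418 for blood cells, 81.4 to 108 and 55.6 to 87.2 for macrophages, and 136 to 232 and 137 to 232 for lymphocytes. Defining genes with no peak at all include Clec4f, Cd68, Marco and Lyz2 of macrophages, Dcn and Col3a1 of stellate cells, and Krt7 and Krt19 of bile duct. In bulk libraries, fewer nuclei of a type and less signal per nucleus cannot be told apart.

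The peaks named here were picked as called, without overlap between the groups and with a mean above the median peak, so separate groups come with the choice. At gene starts the 6 that rose most belong to genes of different functions. The largest gain was at Alas1, which encodes the rate-limiting enzyme of heme synthesis in liver and is itself induced by fasting. Its promoter peak (chromosome 9, 106247931 to 106248131, -77 bases from the start) had 44.8, 32.7 and 47.5 scaled reads in fresh liver, and 190.2, 204 and 231 after freezing. The log2 difference was 2.31 ± 0.12 (adjusted p = 1.16e-14 by limma). Of the 6 peaks assigned to Alas1, 4 rose and none fell. B3galt6, a galactosyltransferase that builds the linker of proteoglycans, had 44.8, 37.4 and 46.3 in fresh liver and 200.2, 184 and 182 after freezing (chromosome 4, 155992611 to 155992811, 2.12 ± 0.12). The start of the microRNA gene Mir466d had 46.1, 51.4 and 40.7 against 173, 175 and 249 (2.07 ± 0.13). Pdcd4, a brake on translation initiation, had 50.2, 69.1 and 67.8 against 213, 229 and 207 (1.79 ± 0.11). Hist1h4h had 48.2, 60.8 and 50.9 in fresh liver and 182, 183 and 174 after freezing (1.74 ± 0.12), and Rbm39, another splicing factor, 87.5, 111 and 99.4 against 329, 348 and 320.4 (1.74 ± 0.09).

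The 6 peaks at gene starts that fell most had log2 differences of -1.55 to -1.44. Rad18 (chromosome 6, 112696592 to 112696792, promoter, the only peak assigned to the gene) had 183, 182 and 167 in fresh liver and 71.0, 59.3 and 51.2 after freezing, a log2 difference of -1.55 ± 0.11. Zfp418 (chromosome 7, 7171190 to 7171390) had 206, 207 and 229 against 77.4, 74.97 and 69.0 (-1.52 ± 0.10). Zbed5, a gene derived from a transposon, had 299, 290.4 and 284 against 126, 94.1 and 91.2 (-1.49 ± 0.09). In the first intron of Cep97, which encodes a centrosome protein that restrains cilia, the values were 305, 287 and 327 against 107, 127 and 97.9 (-1.46 ± 0.09). At the promoter of Hnf4g, a relative of the hepatocyte factor HNF4-alpha, they were 155, 174 and 189 against 56.4, 61.0 and 69.0 (-1.46 ± 0.11). The noncoding gene A630089N07Rik completes the 6, with a difference of -1.44 ± 0.13.

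**Figure D1:**
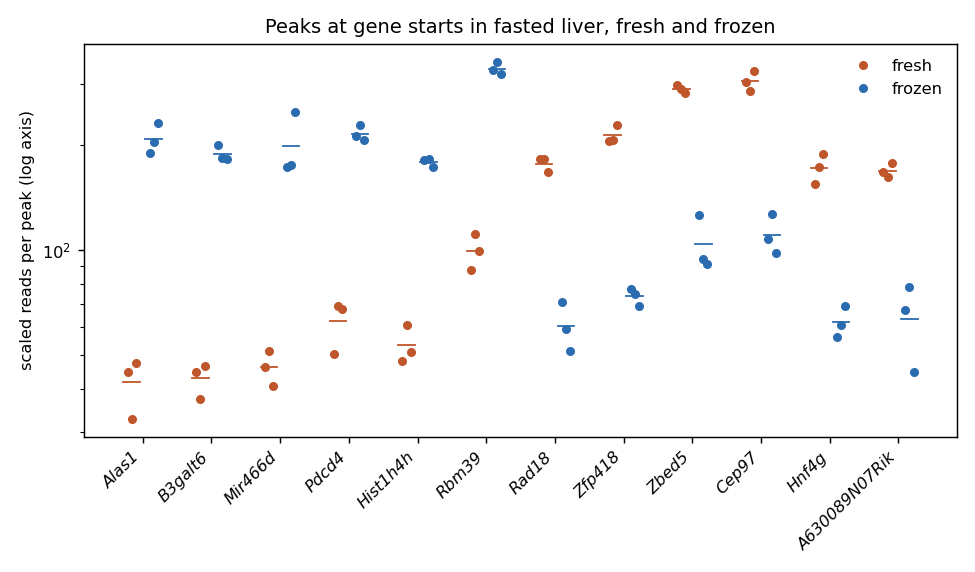
Scaled reads (log axis) of the 6 peaks at gene starts that rose most and the 6 that fell most, with 1 point per library (A, B and C from left to right) and a bar at the mean of 3. Peaks were chosen for groups that do not overlap, from Alas1 (2.31) to Rbm39 (1.74) among those that rose and from Rad18 (-1.55) to A630089N07Rik (-1.44) among those that fell.

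Beyond 1 kb of a gene start the largest gain outside ribosomal, satellite and tRNA repeats was at -8.60 kb from the start of Trp53inp1, a p53 target that acts in autophagy: 36.0, 49.9 and 59.9 scaled reads in fresh liver and 274, 247 and 243 after freezing (chromosome 4, 11147742 to 11147942, intergenic, 2.39 ± 0.13). A peak at -16.7 kb from Limd1, placed by the table in the last exon (3' UTR) of another transcript, had 55.0, 56.1 and 55.4 against 247, 249 and 265 (2.17 ± 0.10). An LTR element 113 kb from Nrn1 had 72.6, 69.1 and 73.5 against 319, 290.3 and 300.4 (2.06 ± 0.09). An intergenic peak nearest to Siah1a, a ubiquitin ligase, rose from 44.8, 44.2 and 50.9 to 195, 208 and 167, and 1 nearest to Cxxc5, a CpG-binding protein, from 105, 91.9 and 90.4 to 361, 404 and 392. The sixth is a peak 1.76 kb from the start of Rn45s, a gene taken up with ribosomal DNA. Its values were 349, 304 and 366 in fresh liver and 1492, 1550 and 2243 after freezing (2.35 ± 0.06). The 6 largest losses among peaks above the median level ran from -1.48 to -1.37, while lower peaks fell further, such as 1 near Acot7 (-1.61). Beyond 1 kb 795 peaks rose and 1863 fell by more than 1 on the log2 scale. In the first intron of Tpd52 an LTR element had 312, 272 and 365 in fresh liver and 106, 109 and 122 after freezing (-1.48 ± 0.08). The others were peaks nearest to Gm15446 (-1.46 ± 0.11), Cggbp1 (-1.45 ± 0.10), Wdr76 (-1.44 ± 0.11), Etl4 (-1.42 ± 0.11) and Gadd45a, a stress-induced gene (-1.37 ± 0.10).

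Ribosomal DNA had the highest median difference of the repeat and position classes compared. Of 23 peaks in rRNA repeats, 22 rose and 1 fell, with a median log2 difference of 2.43, against -0.04 over all peaks. The peak that fell, nearest to Olfr726, went from 93.6, 82.1 and 84.8 to 39.1, 41.0 and 33.4. At Rn45s, the 45S precursor of ribosomal RNA, all 3 peaks rose: the peak 1.1 kb from its start had 421, 354 and 416 scaled reads in fresh liver and 1766, 1804 and 2479 after freezing (chromosome 17, 39844045 to 39844245, 2.33 ± 0.06). An rRNA repeat in an intron near Txndc11 had 54.3, 30.6 and 38.4 against 468, 455 and 616 (chromosome 16, 11144009 to 11144209, 3.63 ± 0.12), and an overlapping pair in the first intron of Filip1l rose by 3.18 ± 0.09 and 3.16 ± 0.09. Frozen library C was the highest at each of these. Copies of ribosomal DNA are alike in sequence, so reads from 1 place may be counted at several, and these peaks are not independent of each other. Their summed share of all reads in peaks was 0.0318, 0.0288 and 0.0310% in fresh liver and 0.133, 0.136 and 0.181% after freezing. Every frozen share was above every fresh share, but with 3 pairs the exact permutation test cannot go below p = 0.25 two-sided, its value here.

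Satellite and tRNA peaks rose as well. All 12 peaks in the major satellite, the repeat that fills mouse heterochromatin around centromeres, rose with freezing (median 2.26). The fresh libraries differed widely there: a peak on chromosome 2 (98666515 to 98666715, over 1000 kb from the nearest gene, Lrrc4c) had 97.7, 23.4 and 296 scaled reads in fresh liver and 615, 654 and 1064 after freezing (3.08 ± 0.24). Library C was the highest and B the lowest of the fresh libraries at this peak, while frozen A and B were close. The 12 lie on chromosomes 2 and 9 in copies of 1 repeat, some overlap, and they are not independent. Of 14 peaks in other satellites 9 rose and 2 fell (median 0.65), and in tRNA genes 30 of 55 rose and 1 fell (median 0.28). The 3 tRNA peaks with the largest differences above the median level rose by 0.59 to 0.62, among them a tyrosine tRNA gene at 193, 169.9 and 183 in fresh liver and 289, 263 and 276 after freezing. In snRNA repeats, which serve splicing, 7 of 9 rose and none fell. The common repeats had medians of -0.18 in LTR, -0.15 in LINE and -0.11 in SINE elements. Lower were 957 of 2350 (40.7%), 357 of 886 (40.3%) and 788 of 2247 (35.1%) peaks, in that order. Distal and intron peaks of any kind had similar values. The median was -0.11 with 35.7% lower at over 1 kb from a start, and -0.15 with 39.1% lower in introns. A shift of these repeats apart from their position was not tested.

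**Figure D2:**
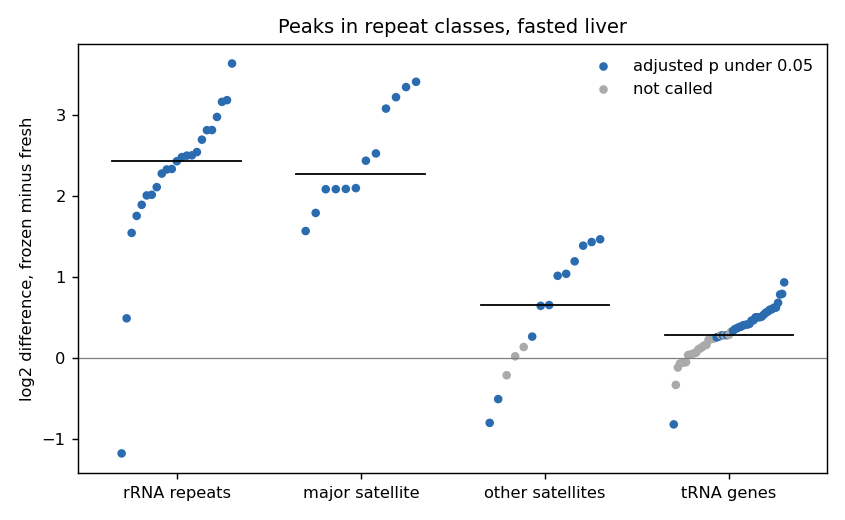
Log2 difference (frozen minus fresh, fasted liver) of every peak in rRNA repeats, the major satellite, other satellites and tRNA genes, with blue points called by limma, grey points not called, and a black bar at the class median. Medians are 2.43, 2.26, 0.65 and 0.28, and the lone rRNA point below 0 is the peak nearest to Olfr726.

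Position shifted the balance of calls. Within 1 kb of a gene start 6959 of 18534 peaks rose and 4898 fell (median 0.06), and beyond it 8544 of 33996 rose and 12133 fell (median -0.11). The median near starts turned to -0.01 with libraries scaled to these same peaks and to -0.005 after quantile normalization, and the median beyond turned to 0.05 without the lowest 25% of peaks, so the sign of either median rests on the scaling or filter. The near median was above the other in each of these 3 fits. Medians were -0.12 in first introns, -0.18 in later introns and -0.10 in exons, against -0.02 in intergenic peaks, 0.002 in 5' UTR peaks and 0.04 in peaks annotated as non-coding. Around gene starts the median was highest not at the start but upstream: 0.22 over 807 peaks centred 200 to 300 bases before it and 0.19 over 1957 at 100 to 200 bases, against 0.01 over the 6538 in the last 100 bases and 0.14 over the 2573 in the first 100 bases after the start. Of the peaks in the last 100 bases 2245 rose and 2172 fell. By 900 to 1000 bases after the start the median was -0.08.

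The level of a peak in fed liver, from columns that the contrast does not use, ordered the differences as well. Of these 6 fed columns 3 are frozen, so the level itself carries an effect of freezing. That effect had the same sign in fasted and fed liver at 45473 of 52530 peaks, so the order is not independent of it. In the lowest 10% of peaks by fed level 551 of 5253 rose and 2680 fell, with a median of -0.39, and in the highest 10% 2902 rose and 957 fell, with a median of 0.19. At the same fed level peaks near gene starts were above the others in the lower 9 classes, by the most in the third (0.02 against -0.17), and level with them in the highest (0.19 and 0.19). The lowest 10% held 4.34, 4.48 and 4.42% of the reads in peaks in fresh liver and 3.61, 3.56 and 3.58% after freezing. Quantile normalization, which gives all libraries the same distribution of values, moved both ends to -0.07 and -0.02. The wider spread of frozen libraries noted above goes with this order, and its part in it was not tested.

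**Figure D3:**
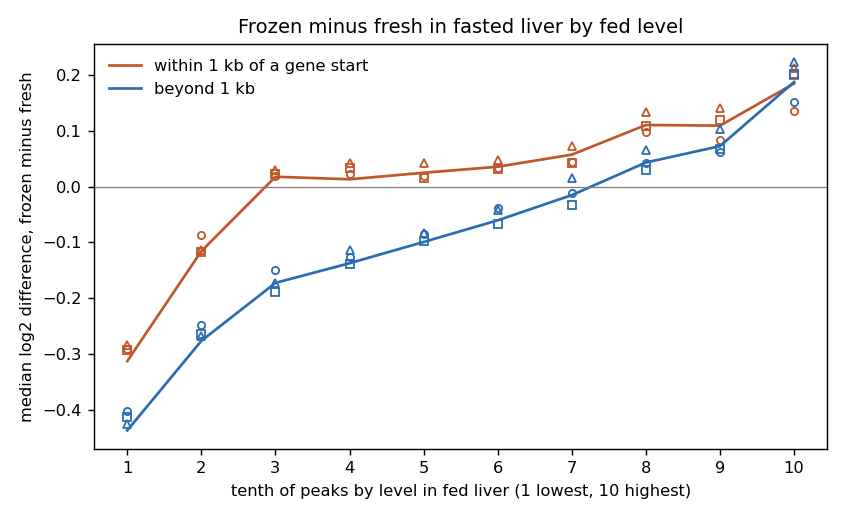
Median log2 difference (frozen minus fresh, fasted liver) in 10 classes of peaks by their level in the 6 fed columns, for peaks within (red) and beyond (blue) 1 kb of a gene start, with lines for the fitted difference and symbols for the letters A (circle), B (triangle) and C (square). The medians rise from -0.31 and -0.44 in the lowest class to 0.19 in the highest, and the letters lie close together.

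Most lists of liver genes had more peaks higher than lower, each read against 29.5% and 32.4% of all peaks. These lists were drawn up from general knowledge with earlier results of these data known. Of 359 peaks at glucocorticoid receptor targets 189 rose and 41 fell (median 0.25), of 216 at genes of xenobiotic and bile acid metabolism 116 and 20 (0.27), and of 331 at amino acid and urea cycle genes 170 and 34 (0.22). The Dusp1 promoter, of a phosphatase that glucocorticoids induce, had 177, 169 and 191 scaled reads in fresh liver and 492, 476 and 534 after freezing (1.48 ± 0.07), and the promoter of Por, the reductase that feeds electrons to cytochromes P450, 207, 182 and 215 against 389, 385 and 472 (1.04 ± 0.07). An intron peak of Pik3r1, a subunit of PI3 kinase, fell from 55.6, 55.6 and 55.4 to 23.7, 19.2 and 22.3 (-1.32 ± 0.20), and a promoter peak of the xenobiotic receptor gene Nr1i2 fell by 0.81 ± 0.12 on the log2 scale. Cytosolic ribosomal proteins (79 and 29 of 157), the circadian clock (81 and 28 of 178), immediate early genes (104 and 37 of 219), the respiratory chain (61 and 22 of 131), gluconeogenesis (106 and 27 of 239), fatty acid oxidation and ketogenesis (130 and 34 of 290), secreted proteins (158 and 48 of 354), hepatocyte transcription factors (154 and 60 of 386), chaperones and other heat shock genes (43 and 31 of 109) and lipogenesis (88 and 39 of 227) had medians of 0.09 to 0.21. No median of these 13 lists changed sign with either other scaling of the libraries.

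Cholesterol synthesis and DNA repair had fewer peaks higher than lower. Cholesterol synthesis genes had 34 higher (20.6%) and 51 lower (30.9%) of 165 peaks, so their lower share is near the 32.4% of all peaks. The balance turned to 29 higher and 26 lower without the pairing by letter, and to 33 and 30 without the lowest 25% of peaks, where the median went from -0.11 to 0.04. DNA repair genes had 20 higher (26.7%) and 33 lower (44.0%) of 75, with a median of -0.16. These counts were 16 and 28 without the pairing by letter. Without the lowest 25% of peaks they were 19 and 21, with a median of -0.04. The Msmo1 promoter, of a demethylating enzyme of sterol synthesis, fell from 448, 431 and 448 to 336, 341 and 316 (chromosome 8, 64733522 to 64733722, -0.42 ± 0.06). In the DNA repair list, Rad18 fell as given above, and a peak in the first intron of Xrcc1, a scaffold of single-strand break repair, rose from 216, 229 and 215 to 367, 384 and 412 (0.81 ± 0.07).

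At the starts of 21 well-known liver genes, differences ran from 1.44 to -0.23. (The start of Ttr has no peak in the table.) The clock genes Nr1d1 and Per1 rose most: Nr1d1 had 74.6, 82.6 and 72.3 scaled reads in fresh liver and 210.2, 212 and 205 after freezing (1.44 ± 0.10), and Per1 82.1, 78.4 and 75.7 against 197, 180.4 and 191 (1.26 ± 0.10). Albumin, the main plasma protein, had 199, 190.1 and 172 against 381, 350.4 and 389 at the peak on its start (1.00 ± 0.07). Among fasting genes, Pck1 rose by 0.90 ± 0.07 and G6pc by 0.81 ± 0.08 (the last steps of gluconeogenesis), Fgf21, a fasting hormone, by 0.85 ± 0.09, and Angptl4 by 0.57 ± 0.07. In fed liver the effects at these starts were 0.94, 0.79, 0.89 and 0.24, and none had a called difference between the feeding states. Cebpa and Cebpb, bZIP factors of liver, rose by 0.62 ± 0.06 and 0.73 ± 0.07, Ppara, the fatty acid sensor, by 0.60 ± 0.06, Hspa8, a chaperone, by 0.81 ± 0.08, Fos by 0.44 ± 0.10 and Apoa1 by 0.36 ± 0.06. The start of Hnf4a, a master factor of hepatocytes, moved by only 0.18 ± 0.06 (395, 364 and 451 against 419, 409.7 and 554), with groups that overlap and a value of -0.03 after quantile normalization. Foxa2 moved by 0.25 ± 0.11, also with overlap. Foxa1 (0.19 ± 0.09), Cpt1a, the gate of fat oxidation (0.14 ± 0.06), Fasn (0.08 ± 0.09) and Scd1 (-0.16 ± 0.11) did not pass the test. Srebf1, the activator of fat synthesis genes, was the lone start that fell (181, 161 and 154 against 137, 139 and 145, -0.23 ± 0.09). The calls at Foxa2 and Srebf1 were lost without letter A (0.18 and -0.14), that at Fos too (0.30), and those at Hnf4a and Foxa2 without letter C (0.13 and 0.21).

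**Figure D4:**
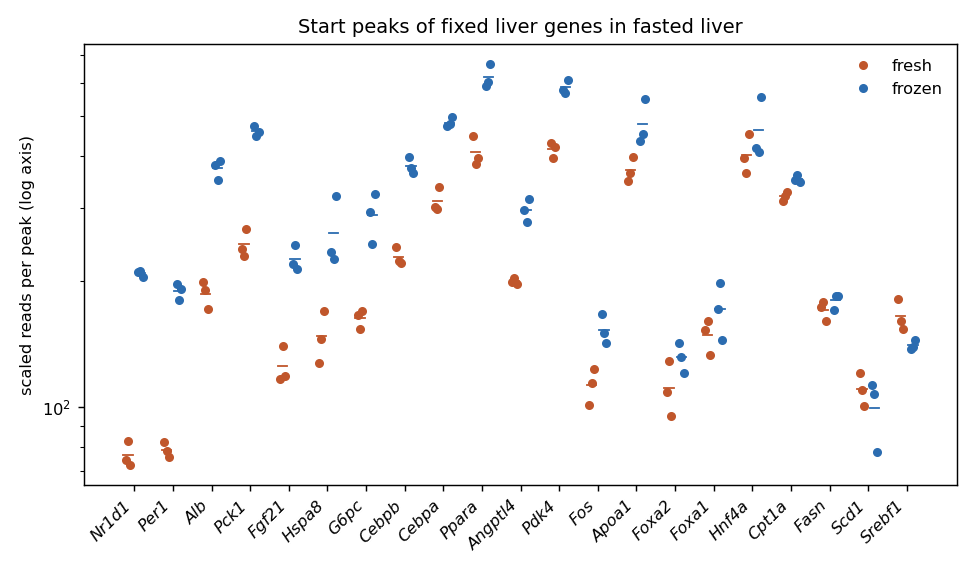
Scaled reads (log axis) at the starts of 21 fixed liver genes in fasted liver, ordered by log2 difference from Nr1d1 (1.44) to Srebf1 (-0.23), with 1 point per library (A, B and C from left to right) and a bar at the mean of 3. The gap between fresh and frozen narrows from left to right, and groups overlap at Hnf4a, Foxa1, Foxa2, Fasn and Scd1.

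The motif counts rest on 7718 genes whose RefSeq promoter window (300 bases) shares at least 100 bases with a peak, 1 peak per gene. Of these 146 rose and 164 fell by more than 1 on the log2 scale. NRF1 letters stood in 27 of the 146 (18.5%), in none of the 164 and in 351 of all windows (4.55%). Over those 351 promoters 247 rose and 26 fell, with a median of 0.41, against 0.03 in windows without the letters. For comparison, 37.5% of all peaks within 1 kb of a gene start, a wider set than the matched promoters, rose and 26.4% fell. CRE letters stood in 19 of the 146 (13.0%), in none of the 164 and in 274 of all (3.55%), and 177 of the 274 rose and 18 fell (median 0.34). The E-box CACGTG was also more common among gainers (19.9%) than among losers (5.49%) or all windows (11.2%), with a median of 0.20. The CCAAT box (CCAATC) had the lowest median of the 15 motifs: -0.07 over 1870 windows, with 17.1% of gainers, 29.9% of losers and 24.2% of all windows. ETS letters (CCGGAAG) stood in 8.22% of gainers, 17.7% of losers and 20.4% of all windows. Both strands were searched and no motif contains another. A match is a run of letters and shows no binding.

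Base composition differed between these promoters, and the NRF1 gap stood at each GC level. The median GC content was 61.3% in gainers, 54.5% in losers and 62.0% in all windows, with 25, 13 and 22 CpG. Over 10 classes of GC content the median difference went from -0.10 at 48.0% GC (219 higher, 323 lower of 772) to 0.17 at 76.7% GC (379 higher, 132 lower of 772). Promoters with NRF1 letters exceeded those without by 0.47, 0.40 and 0.31 in the lowest, middle and highest GC classes of 3, and those with CRE letters by 0.30, 0.37 and 0.24. With the CCAAT box the difference was -0.16, -0.12 and -0.13. The medians with NRF1 letters were 0.39, 0.46 and 0.40 in the letters A, B and C, and with libraries scaled to gene starts or quantile normalized they were 0.33 and 0.27. The other motifs of liver factors moved less or were rare: C/EBP letters (TTGCGCAA or TTGCACAA) gave 0.24 over 77 windows, FOXA (TGTTTAC) 0.10 over 203, glucocorticoid receptor (ACANNNTGT) -0.005 over 269, HNF4 (CAAAGTCCA) -0.04 over 39 and PPAR/RXR (AGGTCAAAG) 0.13 over 27. AP-1 (TGANTCA) gave 0.06, SP/KLF (GGGGCGGGG) 0.10, CTCF (AGGNGGCAG) 0.08, YY1 (AAGATGGCG) 0.14 and the TATA box, TATAAA, 0.11. CRE, YY1 and TATA were added after the data were seen.

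**Figure D5:**
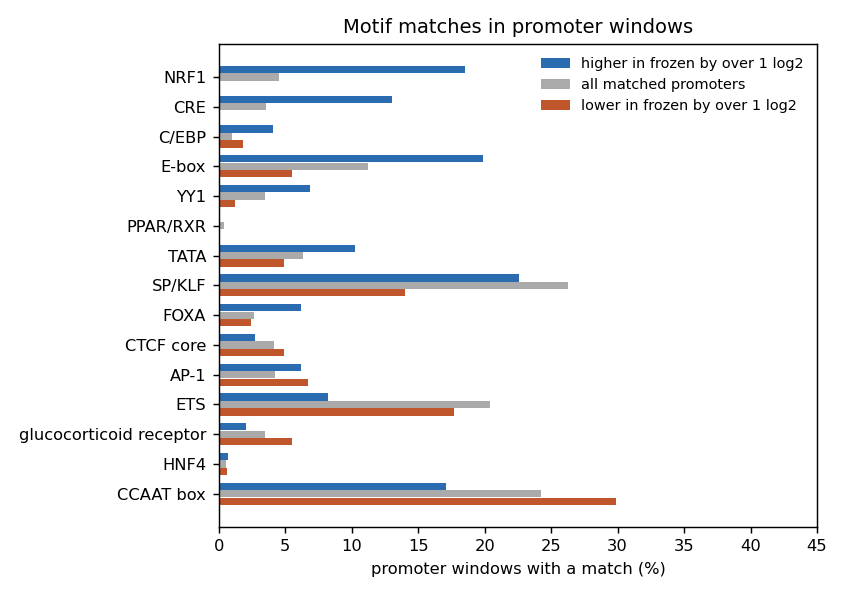
Share of promoter windows with a match to each of 15 motifs, among the 146 promoters higher in frozen fasted liver by more than 1 on the log2 scale (blue), all 7718 matched promoters (grey) and the 164 lower by more than 1 (red), ordered by the median difference of windows with a match. NRF1 and CRE at the top have no red bar, and the CCAAT box at the bottom has its longest bar in red.

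Promoters of numbered zinc finger genes (Zfp), chosen after Zfp418 was seen among those that fell, had 44 higher and 102 lower of 203, with a median of -0.22 against 0.06 over the other matched promoters. Among all peaks within 1 kb of a gene start, a wider set than the matched promoters, 37.5% rose and 26.4% fell. The median GC content of the zinc finger promoters was 55.3%. In the class of matched promoters with a median GC content of 56.3%, 229 of 772 rose and 303 fell (median -0.07).

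Few peaks had a called difference between the effects of freezing in fasted and fed liver. The difference of the effect between the feeding states was called at 395 peaks (0.752%; limma interaction, adjusted p under 0.05), at 187 with the more positive value in fasted and at 208 with the more negative, and at an unadjusted p under 0.05 there were 6879. Without the pairing by letter 0 were called, and 2702 at an unadjusted p under 0.05. For the promoters that moved most in fasted liver, the effect at Alas1 was 2.31 ± 0.12 in fasted and 2.26 ± 0.14 in fed, a difference of 0.05 ± 0.19 (adjusted p = 0.941), and at Rad18 -1.55 ± 0.11 and -2.01 ± 0.12 (0.46 ± 0.17, adjusted p = 0.214). Median effects over promoters with NRF1 letters were 0.41 in fasted and 0.40 in fed liver, and 1 of these 351 differed. Over promoters with CRE letters they were 0.34 and 0.34, and 0 of these 274 differed.

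Ribosomal DNA rose further in fasted than in fed liver. Of the 23 peaks in rRNA repeats 15 had a called difference (65.2%, against 0.752% of all peaks), all more positive in fasted. Median effects were 2.43 in fasted and 1.60 in fed liver. These peaks are copies alike in sequence and not independent, and none of the calls stood without the pairing by letter. All 3 peaks of Rn45s differed as well, by 0.48 ± 0.11, 0.68 ± 0.14 and 0.84 ± 0.12 (adjusted p = 0.0332, 0.0123 and 0.000573). No satellite or tRNA peak had a called difference, although the satellite medians were 1.45 and 0.96, and 12 of 26 satellite peaks had an unadjusted p under 0.05.

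The called differences at cholesterol synthesis genes were mostly more negative in fasted than in fed liver. Of 165 peaks at cholesterol synthesis genes, 14 were more negative and 2 more positive in fasted (9.70% called, against 0.752% of all peaks), and 13 of the 14 lie within 1 kb of a gene start, over 11 genes. These genes and the next were chosen after their values were seen. An exon peak 301 bases after the start of Idi1, an isomerase of the mevalonate pathway, had 359.6, 361 and 358 scaled reads fresh and 255, 284 and 251 frozen in fasted liver, while in fed liver it had 386, 377 and 368 fresh and 419, 443 and 399.5 frozen. The effect was thus -0.45 ± 0.07 in fasted and 0.16 ± 0.06 in fed (difference -0.60 ± 0.09, adjusted p = 0.000745). At the promoter of Fdps, the next enzyme of the pathway, frozen and fresh values did not overlap in fasted liver (409, 396 and 425 against 330.3, 304 and 289) but did in fed liver (454, 443 and 409 against 472, 457 and 401), with a difference of -0.44 ± 0.09. In the lipogenesis list 8 peaks were more negative and 2 more positive of 227, and 4 of the 8 lie within 1 kb of a gene start. The starts of Fasn and Srebf1 had no called difference (adjusted p = 0.683 and 0.499). The Thrsp promoter, of a regulator of fat synthesis, went from 223, 204 and 166 to 331, 344 and 263 in fed liver and from 137, 137 and 111 to 141, 112 and 91.2 in fasted liver (difference -0.83 ± 0.13, adjusted p = 0.000836).

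Pdk4, whose kinase restrains glucose oxidation in fasting, showed the reverse. Its promoter (chromosome 6, 5496352 to 5496552) had 429.5, 395 and 422 scaled reads fresh and 578, 567 and 609.7 frozen in fasted liver, and 351, 364 and 340.4 fresh and 356, 329.7 and 332 frozen in fed liver. The effect of freezing was 0.49 ± 0.05 in fasted and -0.05 ± 0.06 in fed liver, a difference of 0.55 ± 0.08 (adjusted p = 0.000836). A pair of distal Pdk4 peaks also differed, by 0.61 ± 0.12 and 0.64 ± 0.16. Among 290 peaks of fat oxidation and ketogenesis genes, these 3 and 1 peak near Acot1 were the differences called, all more positive in fasted. That is 1.38% of the list, against 0.752% of all peaks, and 3 of the 4 are at 1 gene. Since fresh and frozen libraries differ in depth in both feeding states, the part of depth in these differences was not tested.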

How the data were processed

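Nuclei were taken by INTACT and about 25000 bead-bound nuclei per reaction were transposed for 30 minutes, per the labels' protocols. Genome build mm10, HOMER, DESeq2, SAMtools and BWA 0.7.5a-r405 come from the submitters' processing notes, and no source used here gives peak calling settings. The deposited table gives signal values (reads per peak divided by a factor per library) in 12 columns, and in every column all values were whole multiples of 1 step, which gave back the reads and the depth. Peak positions, nearest genes and repeat names are the authors'. The authors' fasting statistics were not used.

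Peaks were compared with limma 3.58.1 (R 4.3.3, trended prior, letter as block, 2 residual degrees of freedom before moderation) on log2 of the signal plus 1, with no filter, and called at an adjusted p under 0.05. The difference between feeding states is an interaction fit over all 12 columns with 6 letter blocks. Deviations of fresh and frozen fasted columns of 1 letter correlated at 0.459, 0.640 and 0.616, and the highest value between other letters was 0.0213. In the fed columns they correlated at 0.377, 0.329 and 0.454, and every other pair of letters was below 0. This pairing is a hint from the data, since letters do not match the mouse numbers in the titles. Scripts were tested on simulated data.

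Named peaks are the 6 highest and 6 lowest near gene starts and beyond 1 kb (called, no overlap, above the median level of 115 scaled reads), 3 per repeat class, the peaks of lowest p of the gene lists and 24 fixed genes (some not reported here), and for the difference between feeding states the 3 largest each way. The comparison, members and lists were chosen with earlier results of these data known. Alternatives were other pseudocounts (0.5, 5), scalings and filters, edgeR 4.0.16 on recovered reads, leaving out each letter, and, added after seeing the data, thinning to the shallowest library. No genome was used, so motifs were searched in RefSeq promoter windows, matched to 8822 of 18534 peaks near starts, in place of all peaks. Counting error at a peak of median count was 6.79 to 14.0% per library.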

Additional observations from a re-analysis of the deposited data

Results flagged for a closer look

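The effect of freezing differed between fasted and fed liver, by the interaction test, at 395 peaks and at 19 peaks that are described one by one. Values here are the fasted minus the fed effect on the log2 scale. The largest were 1.14 at an intron peak of another gene, -130.2 kb from the start of 4930539N22Rik, 1.12 at a peak at the end of a transcript near Hmgcs1 and 1.09 at an rRNA repeat near Txndc11, and, in the other direction, -1.24 at Acot7, -1.24 at Fzd1 and -1.21 at Gm13547. Ribosomal DNA gave 0.84, 0.68 and 0.48 at Rn45s and 0.69 and 0.74 at Filip1l. Sterol and fat synthesis genes gave -0.60 at Idi1, -0.44 at Fdps, -0.37 at Msmo1, -0.83 at Thrsp and -0.75 at Scd1. The others were 0.55 at Pdk4, 0.75 at Limd1 and 0.89 at Mir466d. Of the 395 peaks 87 were higher and 120 lower in frozen liver in both feeding states, 79 were higher in fasted and lower in fed liver, and 109 the reverse. None of these calls stood without the pairing by letter.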

How the results depend on the processing

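Without the replicate block by letter 10773 peaks were lower, and 0 differed between feeding states (608 after quantile normalization). Without the lowest 25% of peaks 10166 were lower, and the median was 0.104 near gene starts and 0.0477 beyond 1 kb, the last with its sign turned. Scaled to peaks near gene starts these medians were -0.0145 (sign turned) and -0.184, and after quantile normalization -0.00472 (sign turned) and -0.0151. Leaving out each letter in turn, the median beyond 1 kb ran from -0.113 to -0.0960. Signs also turned at Hnf4a (-0.0332), Cpt1a (-0.0387) and Fasn (-0.0343) after quantile normalization and at Fasn (-0.00173) when scaled to gene starts. The cause was not tested. Counts beyond 1 on the log2 scale moved to 1323 higher and 726 lower after quantile normalization, 515 lower without the lowest 25%, and 864 higher with 2816 lower when scaled to gene starts. With edgeR on recovered reads 16451 peaks rose and 18050 fell, and after thinning all libraries to the shallowest 12576 and 12495. Calls opposite to those reported numbered 44 after quantile normalization and 0 in the other 11 alternatives. Depth limits frozen library C most, with a median of 51 reads per peak.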

Other observations

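Peaks on chromosome 19 had the highest share that rose among the chromosomes looked at, 713 of 1746 with 357 lower (median 0.13). Klf9, a glucocorticoid-induced transcription factor gene chosen after its values were seen, had 24 of its 30 peaks higher and 1 lower in frozen fasted liver (median 0.52), and the clock gene Per2, chosen likewise, 9 of 15 higher and 1 lower. Over all peaks 29.5% rose and 32.4% fell.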
